A study of Mus musculus with 6 samples.

Results

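The genes described here encode the potassium, calcium, sodium and chloride channels, the transient receptor potential (TRP) channels and the Piezo channels of the mouse, measured in the calvarial pre-osteoblast line MC3T3-E1. They were chosen by symbol: every probe set that names a single gene whose symbol starts with Kcn, Cacn, Scn plus a digit, Clcn or Ano, or is a Clic, TRPA, TRPC, TRPM, TRPV or Piezo gene. This gave 194 probe sets for 170 genes, out of 19938 genes tested. By ion they fell into 89 potassium channel genes, 24 calcium, 11 sodium, 21 chloride, 20 TRP and 2 Piezo genes, with 3 RNAs from the strand opposite a potassium channel gene. The symbols take in auxiliary subunits and some proteins that are no ion channel in every setting, such as the CLC exchangers and lipid scramblases among the anoctamins. A further 14 symbols of the RefSeq mouse gene table that match the rule were not analysed here.

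MC3T3-E1 was derived from newborn C57BL/6 mouse calvaria and lays down a bone-like matrix when induced. Differentiated cells (3 arrays) were taken at confluence and held for 14 days in DMEM, a base medium, with 10% serum and 1 mM sodium pyruvate, to which 0.1 µM dexamethasone, 10 mM β-glycerophosphate and 0.2 mM ascorbic acid-2-phosphate were added. Undifferentiated cells (3 arrays) grew in α-MEM free of ascorbic acid, with 10% serum of a grade made for mesenchymal stem cells. The line is a single subclone, no genotype or transgene separates the groups, and base medium, time after confluence and the induction compounds differ between them together, so their effects cannot be told apart. The replicates are called independent without a statement of what separated them, so p-values measure the spread between these arrays, which may be technical.

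Ion channels are pores that let selected ions cross a membrane down their electrochemical gradient. Potassium and chloride channels set the resting potential and volume of a cell, voltage-gated sodium and calcium channels pass current when the membrane depolarises, and TRP and Piezo channels admit cations in response to heat, lipids or stretch. Osteoblasts are known to use calcium entry through such pores as a signal of mechanical load, and the chloride-proton exchanger of the lysosome is best known in bone for acid secretion by osteoclasts.

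Values are log2 expression after robust multi-array averaging (RMA), and each probe set had been centred on its median over the 6 arrays. A value therefore tells how far an array lies from the middle of that gene's 6 values, and neither the level of a gene nor its detection can be read. For a gene with 1 probe set whose groups do not overlap, the centre lies midway between the groups, so the nearest arrays of each group carry the same size with opposite sign. Array medians over all genes lay between -0.00949 and 0.0106, and the residual SD of an array around its group mean was 0.0745 to 0.0947, highest in undifferentiated replicate 3. Among 10 osteoblast markers, 5 rose in differentiated cells (Dmp1, Ibsp, Omd, Postn and Alpl) and 2 fell (Col1a1 and Sp7). That is 70% past an adjusted p of 0.05 (limma), against 35.5% of all genes tested. The markers were chosen with earlier results of these data known, so this share describes the list only. The mean of the 10 markers per array was 0.46 to 0.59 in differentiated and -0.56 to -0.45 in undifferentiated cells.

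A smaller share of channel genes than of all genes was called, and those called were mostly higher in differentiated cells, many by small amounts. Of the 170 genes, 32 (18.8%) passed an adjusted p of 0.05 (limma, Benjamini-Hochberg over all genes), against 35.5% of all genes tested. The 25 higher genes were 14.7% of the channel genes, against 16.4% of all genes, and the 7 lower ones 4.12%, against 19.1% of all genes. The excess of higher calls lay among small changes. Of the called genes, 13 changed by at least 0.5 on the log2 scale, 7 of them higher and 6 lower. That bound was not counted over all genes. Only Cacna1g, Clcn7 and Trpv2 also changed at least 2-fold, all of them upward, which is 3 of 170 genes where 4.81% of all genes did so. That count was 5 under cyclic loess scaling and 5 without differentiated replicate 2, with Kcnmb4 and Scn3a added in both. The groups did not overlap for 52 channel genes (30.6%), against 46.2% of all genes. The median log2 fold change, differentiated minus undifferentiated, was 0.07 over the channel genes and 0.02 over all genes. Of the 170 values 141 were positive (82.9%), against 56.2% of all genes. The median spread within a group was 0.084 for channel genes and 0.081 for all genes.

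**Figure D1:**
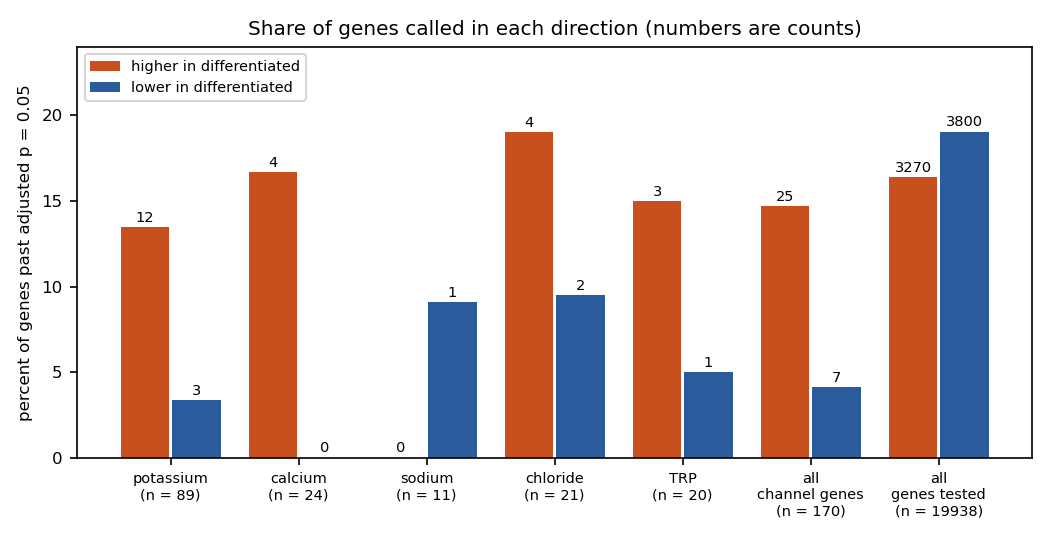
Percent of genes past an adjusted p of 0.05 in each direction, by ion (x axis; n is the number of genes), with all 170 channel genes and all 19938 genes tested at the right; the figures on the bars are counts, and the 2 Piezo genes and 3 opposite-strand RNAs are shown only within all channel genes. Lower genes were 4.12% of the channel genes and 19.1% of all genes.

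Calls were spread over the ions, and each share given here lay below the 35.5% called over all genes. Family counts in the paragraphs that follow stand against the same background, of which 16.4% rose and 19.1% fell. In the potassium group 15 of 89 genes were called (16.9%), in the calcium group 4 of 24 (16.7%), in the sodium group 1 of 11 (9.09%), in the chloride group 6 of 21 (28.6%) and in the TRP group 4 of 20 (20.0%). The median log2 fold change was 0.06 for potassium, 0.08 for calcium, 0.03 for sodium, 0.10 for chloride and 0.10 for TRP genes. The share called was not tested between ions. The potassium count varied with single arrays, being 10 without differentiated replicate 3, 9 without undifferentiated replicate 2 and 23 without undifferentiated replicate 3. Kcnmb4, Kcnn4, Kcnt2, Kcnk10, Kcnk4, Kcne4, Kcns3 and Kcnn1 were called under all 14 alternative settings, and the other potassium calls were not. The calcium count was 2 without differentiated replicate 2, undifferentiated replicate 1 or undifferentiated replicate 2.

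**Figure D2:**
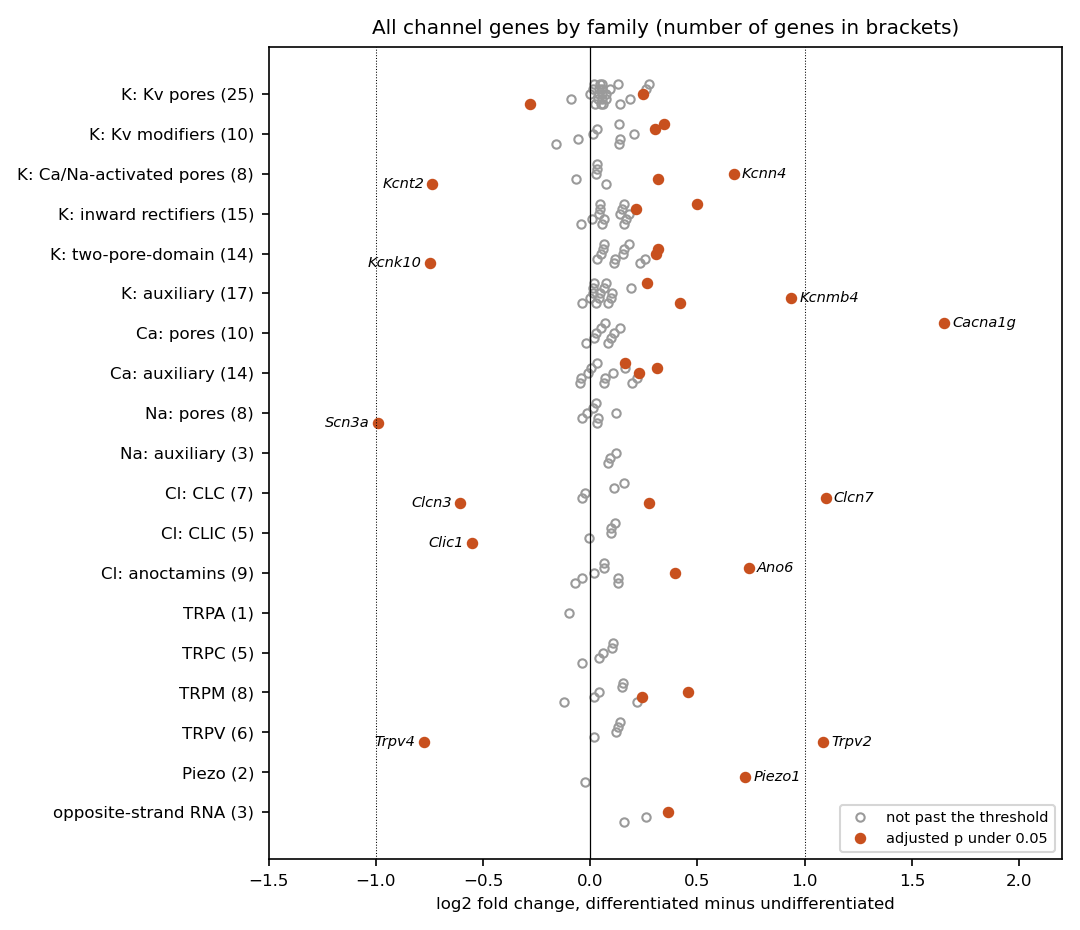
Log2 fold change (x axis, differentiated minus undifferentiated) of each of the 170 channel genes, 1 point per gene, in rows by family with the number of genes in brackets; filled points passed an adjusted p of 0.05, and dotted lines mark a 2-fold change. Most points lie between 0 and 0.3, and Cacna1g at 1.65 lies farthest out.

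The voltage-gated calcium pore Cacna1g held the largest change of any channel gene. Cacna1g (probe set 10389929) encodes Cav3.1, a low-voltage-activated T-type calcium channel that opens at small depolarisations. Its centred log2 values were 0.83, 0.78 and 0.74 in differentiated cells and -0.74, -1.11 and -0.74 in undifferentiated cells. The groups were far apart, and undifferentiated replicate 2 was the lowest array. Cacna1g rose 3.14-fold, by 1.65 ± 0.10 on the log2 scale (SE, 3 arrays per group, adjusted p = 1.84e-06, limma). In bulk RNA, a change in the share of cells that use a gene and a change in RNA per cell cannot be told apart, nor can fewer cells of a type and less RNA per cell.

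The other 9 calcium pores were not called. Cacna1c encodes Cav1.2, the L-type channel of osteoblasts and heart, and had a log2 fold change of -0.02 with a 95% interval of -0.15 to 0.11. That interval lies wholly within 0.5 of no change. The highest of the uncalled pores, Cacna1d, was at 0.14. Among the 14 auxiliary calcium subunits 3 rose by small amounts: Cacng7 by 0.31 ± 0.06 (adjusted p = 0.00229), Cacng4 by 0.23 ± 0.06 (adjusted p = 0.0198) and Cacna2d3 by 0.16 ± 0.05 (adjusted p = 0.0414, limma). Cacng4 and Cacng7 are best known as partners of AMPA-type glutamate receptors, and Cacna2d3 encodes an α2δ subunit that brings calcium pores to the surface. Of 14 alternative settings, Cacng4 was called in 10 and Cacna2d3 in 7, with adjusted p-values of up to 0.0741 and 0.122 (limma).

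Among potassium channel genes the largest change was in Kcnmb4, a partner of the calcium-activated channels. Kcnmb4 (probe set 10372528) encodes β4, an auxiliary subunit that alters the gating of the large-conductance BK channel. Its values were 0.69, 0.37 and 0.58 in differentiated cells and -0.39, -0.40 and -0.37 in undifferentiated cells. The undifferentiated arrays lay close together and the differentiated ones were more spread. Kcnmb4 rose 1.91-fold (0.94 ± 0.08, adjusted p = 2.07e-05, limma). Kcnmb4os1, an RNA from the opposite strand of that gene, rose by 0.36 ± 0.06 (adjusted p = 0.00193), and Kcnmb4os2 was at 0.26 and not called. Kcnma1, which encodes the BK pore itself, had a log2 fold change of -0.06 (95% interval -0.18 to 0.05), with its 2 probe sets at -0.12 and -0.01.

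Kcnn4 encodes the intermediate-conductance calcium-activated channel KCa3.1, which sustains calcium entry in non-excitable cells by holding the membrane negative. Its values were 0.25, 0.47 and 0.30 in differentiated cells, against -0.37, -0.25 and -0.35 in undifferentiated cells. The groups did not overlap and Kcnn4 rose 1.59-fold (0.67 ± 0.07, adjusted p = 7.60e-05, limma). The small-conductance channel gene Kcnn1 rose by 0.32 ± 0.07 (adjusted p = 0.00605). Kcnt2, the sodium-activated channel Slick, went the other way. Its values were -0.26, -0.52 and -0.50 in differentiated cells and 0.37, 0.30 and 0.26 in undifferentiated cells, and it fell 1.67-fold (-0.74 ± 0.08, adjusted p = 7.65e-05).

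Tandem-pore (K2P) channels carry the background potassium current that holds the resting potential. Of 14 such genes, Kcnk10 was the one that fell. It encodes TREK-2, which opens with membrane stretch and lipids, and its values were -0.20, -0.34 and -0.41 in differentiated cells, against 0.52, 0.57 and 0.20 in undifferentiated cells. The lowest undifferentiated array, replicate 3, still lay above every differentiated one, and the fall was 1.68-fold (-0.75 ± 0.10, adjusted p = 0.000357, limma). Its relatives TREK-1 and TRAAK, also opened by stretch, were not lower: Kcnk2 (TREK-1) was at 0.06 (95% interval -0.11 to 0.23) and was not called, and Kcnk4 (TRAAK) rose by 0.32 ± 0.06 (adjusted p = 0.00336). Kcnk15, of the TASK subfamily, was called at 0.31 ± 0.10 (adjusted p = 0.0375) although its groups overlapped.

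The remaining potassium calls were of 0.50 or less in size. Among 25 voltage-gated (Kv) pores, Kcnh2, the channel hERG that repolarises the heart, fell slightly (-0.28 ± 0.07, adjusted p = 0.0158), whereas Kcnh3 rose by 0.25 ± 0.07 (adjusted p = 0.0235). The silent subunits, which modify Kv pores without forming one, held Kcns3 at 0.30 ± 0.05 (adjusted p = 0.00151) and Kcns1 at 0.35 ± 0.10 (adjusted p = 0.0303). Auxiliary subunits Kcne4 and Kcnab1, both partners of Kv pores, rose by 0.42 ± 0.08 (adjusted p = 0.00315) and 0.26 ± 0.07 (adjusted p = 0.0133). Of 15 inward rectifiers, which stabilise the resting potential, Kcnj4 rose by 0.21 ± 0.06 (adjusted p = 0.0197) and Kcnj14 by 0.50 ± 0.16 (adjusted p = 0.0381, limma), while Kcnj2, a classic member, was at 0.04 (95% interval -0.09 to 0.18). Kcnj14 had the widest spread within groups of any channel gene, 0.275, with -0.05, 0.41 and 0.61 in differentiated cells and -0.30, -0.28 and 0.05 in undifferentiated cells, so the groups overlapped. Kcnj14, Kcnk15 and Kcns1 were the called genes with overlapping groups and each lost its call without differentiated replicate 3. Kcnab1, Kcnh2, Kcnh3 and Kcnj4 also lost theirs under at least 1 other setting, with adjusted p-values of up to 0.0689, 0.0588, 0.0720 and 0.0734.

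**Figure D3:**
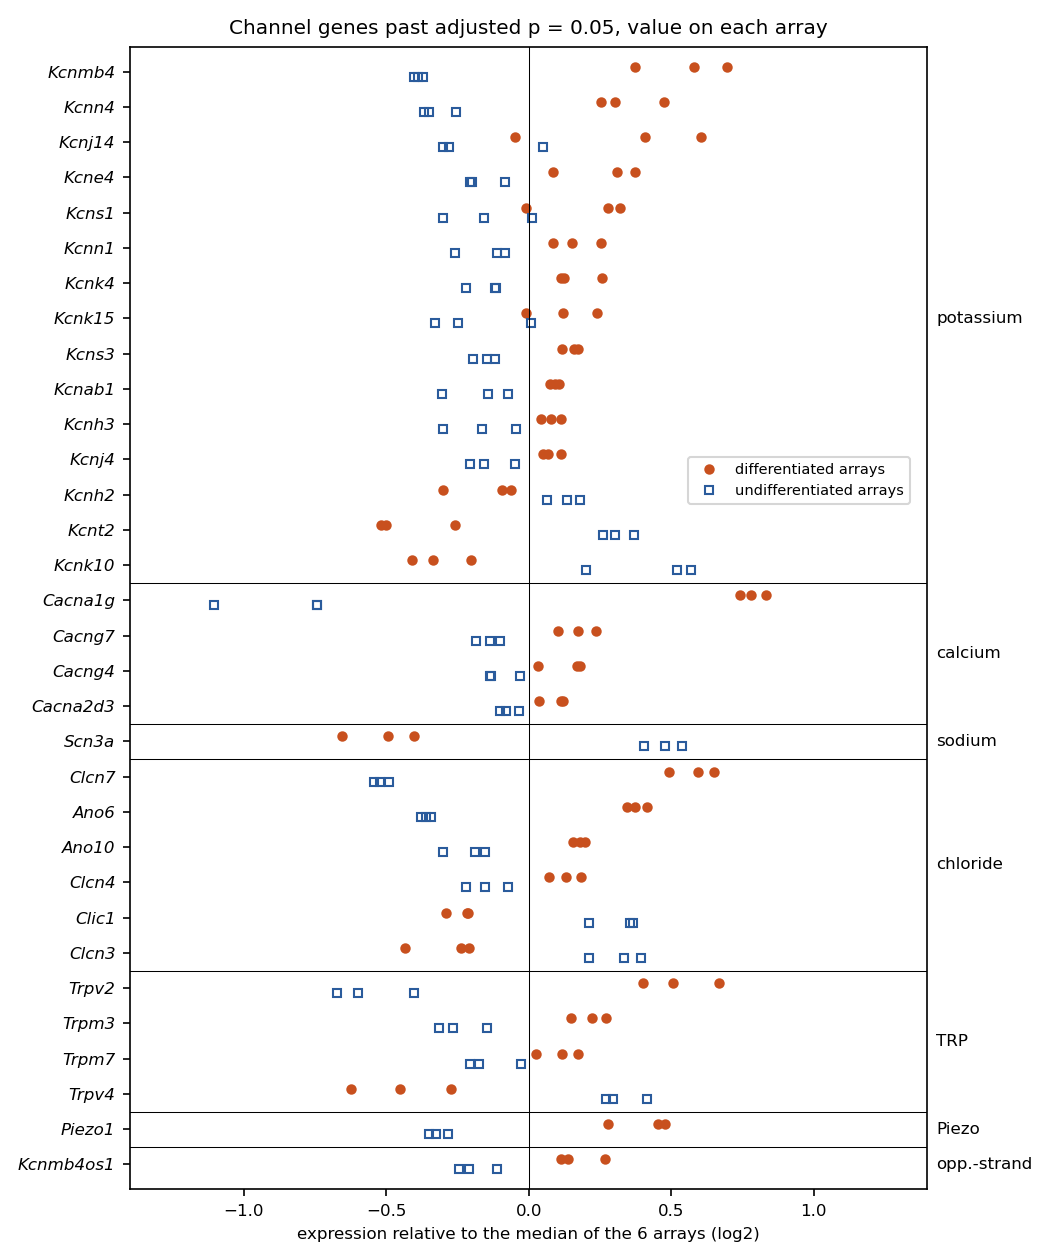
Centred log2 value on each of the 6 arrays (x axis, relative to the gene's median) for the 32 called channel genes, in rows grouped by ion; filled circles are differentiated and open squares undifferentiated arrays. The groups overlap for Kcnj14, Kcns1 and Kcnk15, and the widest gap is that of Cacna1g.

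Of the sodium channel genes, Scn3a alone was called. Scn3a (probe set 10483228) encodes Nav1.3, a voltage-gated sodium channel of embryonic neurons. Its values were -0.40, -0.49 and -0.66 in differentiated cells and 0.54, 0.40 and 0.48 in undifferentiated cells. Every differentiated array lay well below every undifferentiated one. Scn3a fell 1.99-fold (-0.99 ± 0.07, adjusted p = 8.71e-06, limma), just short of 2-fold. The sodium channel genes of the same cluster were not called: Scn2a, the next protein-coding gene on one side, averaged 0.03 over 14 probe sets, none of them called, Scn1a was at -0.01, Scn9a at -0.04 and Scn7a at 0.03. Other genes of the region were called in both directions, Grb14 at 0.80 (adjusted p = 4.02e-05), Ttc21b at -0.48 (adjusted p = 0.00196) and Fign at -0.37 (adjusted p = 0.00545, limma). Kcnh7, Cobll1, Slc38a11, Csrnp3 and Galnt3, also of the region, were not called, with values of -0.09 to 0.09. None of the 3 auxiliary sodium subunits was called, and their log2 fold changes were 0.08 to 0.12. Of 10 neuron markers, Tubb3 fell by 0.97 and no other was called. Their mean per array was -0.052 to 0.0048 in differentiated and 0.02 to 0.06 in undifferentiated cells, and their part in the fall of Scn3a was not tested.

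Chloride genes moved both ways, within the CLC family and also between families. Clcn7 (probe set 10442691) encodes the chloride-proton exchanger ClC-7 of lysosomes and of the osteoclast's acid-secreting border, and its loss causes osteopetrosis. Its values were 0.59, 0.65 and 0.49 in differentiated cells and -0.54, -0.49 and -0.52 in undifferentiated cells, tight in both groups. Clcn7 rose 2.14-fold (1.10 ± 0.06, adjusted p = 1.01e-06, limma). Clcn3, an exchanger of endosomes and synaptic vesicles, had values of -0.44, -0.21 and -0.24 in differentiated cells, against 0.21, 0.40 and 0.33 in undifferentiated cells. It fell 1.52-fold (-0.61 ± 0.08, adjusted p = 0.000251). Clcn4, its close endosomal relative, rose by 0.28 ± 0.06 (adjusted p = 0.00602), and the other 4 CLC genes were not called, with values of -0.04 to 0.16. Of 10 macrophage and osteoclast markers, Cd68 (0.44) and Cd14 (0.42) rose and 8 were not called. Their mean per array was 0.03 to 0.14 in differentiated and -0.10 to -0.04 in undifferentiated cells, and their part in the rise of Clcn7 was not tested.

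Genes of lysosomal function in mammals are known to share a palindromic E-box in their promoters, bound by the factor TFEB, so promoter letters are shown for Clcn7, for Clcn3, which fell, and for the other gene of this set that rose and held the longer motif, Trpm7. Mcoln1, a lysosomal TRP-related channel outside the symbol rule, is added for comparison and was chosen after its rise was seen. The printed windows were picked partly by change and motif, so they do not show how often rising genes hold it. The sequences are RefSeq's on assembly GRCm38.p6, from 250 bases before to 50 after the annotated start, read 5′ to 3′ on the gene's strand. Capitals mark CACGTG, the E-box, and TCACGTGA, the E-box core of the CLEAR element, which contains it. Clcn7 lies at chr17:25133141-25133440 (plus strand, the first of 2 annotated starts), Trpm7 at chr2:126876212-126876511 (minus strand), Mcoln1 at chr8:3500269-3500568 (plus strand) and Clcn3 at chr8:60983262-60983561 (minus strand, the first of 2 starts).
Clcn7: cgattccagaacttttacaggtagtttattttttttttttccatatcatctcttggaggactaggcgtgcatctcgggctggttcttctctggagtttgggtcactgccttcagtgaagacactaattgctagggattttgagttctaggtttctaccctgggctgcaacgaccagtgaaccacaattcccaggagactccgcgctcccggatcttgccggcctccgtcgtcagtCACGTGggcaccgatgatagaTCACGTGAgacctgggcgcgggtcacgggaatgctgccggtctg
Trpm7: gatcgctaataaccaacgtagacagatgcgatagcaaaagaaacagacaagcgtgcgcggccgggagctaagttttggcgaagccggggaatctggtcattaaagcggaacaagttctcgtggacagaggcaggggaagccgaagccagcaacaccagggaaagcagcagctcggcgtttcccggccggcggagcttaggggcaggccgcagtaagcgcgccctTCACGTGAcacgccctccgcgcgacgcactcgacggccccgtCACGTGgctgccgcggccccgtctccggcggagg
Mcoln1: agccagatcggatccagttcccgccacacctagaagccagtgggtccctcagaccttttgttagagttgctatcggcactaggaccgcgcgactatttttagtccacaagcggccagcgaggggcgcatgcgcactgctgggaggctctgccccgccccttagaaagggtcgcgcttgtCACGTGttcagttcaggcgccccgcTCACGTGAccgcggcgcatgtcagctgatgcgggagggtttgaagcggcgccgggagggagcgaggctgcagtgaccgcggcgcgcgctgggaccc
Clcn3: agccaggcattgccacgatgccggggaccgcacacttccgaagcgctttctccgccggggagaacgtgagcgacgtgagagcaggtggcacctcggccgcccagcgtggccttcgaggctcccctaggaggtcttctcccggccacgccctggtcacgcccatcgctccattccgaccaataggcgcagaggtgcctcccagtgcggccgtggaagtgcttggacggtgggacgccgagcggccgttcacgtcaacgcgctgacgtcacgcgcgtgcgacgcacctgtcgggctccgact
Counting from the start site, the CACGTG matches begin at -15 and 8 in Clcn7, at -25 and 17 in Trpm7 and at -71 and -45 in Mcoln1, while the Clcn3 window holds none. The windows at the second annotated starts of Clcn7 and Clcn3 also hold none. Outside the symbol rule, Ostm1, the partner of ClC-7, and P2rx4, found largely in lysosomes, rose by 1.20 and 2.37 on the log2 scale. Their windows hold no CACGTG, nor do those of Trpv2 and Kcnmb4, which rose more than Trpm7. The letters of these genes are not printed.

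RefSeq promoters were found for 134 of the 170 genes, with 180 promoters among them, and both strands were searched. CACGTG was present for 6 of 20 called-higher genes (30%: Clcn4, Clcn7, Kcnab1, Kcne4, Kcnn4 and Trpm7), for 0 of 6 called-lower genes and for 7 of 108 uncalled genes (6.48%), against 8.09% of all 27025 genes with a promoter. TCACGTGA was present for 2 of the 20 (Clcn7 and Trpm7) and for 1.12% of all genes. TGTTCT, the shorter repeat unit of the glucocorticoid receptor's site, was present for 4 of the 20 higher and 1 of the 6 lower genes, against 21.3% of uncalled channel genes and 21.3% of all genes. TGACTCA, the AP-1 site, was found in Clic1 among the called genes and in 5.95% of all genes. A match is a description of letters in this window, and no test was made of these counts.

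The anoctamins and CLIC proteins complete the chloride group. Ano6 encodes TMEM16F, a calcium-activated scramblase that moves phosphatidylserine to the outer face of the membrane and also conducts ions. Its values were 0.41, 0.37 and 0.34 in differentiated cells and -0.34, -0.36 and -0.38 in undifferentiated cells, with little spread in either group. Ano6 rose 1.67-fold (0.74 ± 0.05, adjusted p = 4.83e-06, limma) and Ano10 rose by 0.39 ± 0.06 (adjusted p = 0.000584). Ano1, the calcium-activated chloride channel of secretory epithelia, was at -0.07 (95% interval -0.24 to 0.10). Clic1 encodes a soluble protein that can insert into membranes and pass chloride. Its values were -0.29, -0.21 and -0.22 in differentiated cells, against 0.36, 0.37 and 0.21 in undifferentiated cells, and it fell 1.47-fold (-0.55 ± 0.06, adjusted p = 0.000104). The other 4 CLIC genes were not called.

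Among TRP genes a pair of related channels moved in opposite directions. Trpv2 (probe set 10376868) encodes a calcium-permeable channel gated by noxious heat and membrane stretch. Its values were 0.51, 0.40 and 0.67 in differentiated cells and -0.67, -0.60 and -0.40 in undifferentiated cells. Trpv2 rose 2.12-fold (1.08 ± 0.09, adjusted p = 1.71e-05, limma). Trpv4 encodes a channel opened by swelling, warmth and shear, whose mutations cause skeletal dysplasias in humans. Its values were -0.27, -0.62 and -0.45 in differentiated cells, against 0.29, 0.27 and 0.41 in undifferentiated cells, and it fell 1.71-fold (-0.78 ± 0.09, adjusted p = 0.000130). For both genes every array of one group lay beyond every array of the other. The other 4 TRPV genes were not called, with values of 0.02 to 0.14.

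Of 8 TRPM genes 2 rose. Trpm3, a channel of heat and neurosteroid sensing, rose by 0.46 ± 0.06 (adjusted p = 0.000440), and Trpm7, a magnesium- and calcium-permeable pore fused to a kinase, by 0.24 ± 0.07 (adjusted p = 0.0209, limma). Trpm7 lost its call without differentiated replicate 1 or 2 or undifferentiated replicate 2 or 3, with adjusted p-values of up to 0.0766. None of the 5 TRPC genes was called, among them Trpc1 at 0.06 (95% interval -0.16 to 0.28), and Trpa1 was at -0.10.

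The Piezo genes, which encode the stretch-gated cation channels of bone and touch, differed in their results. Piezo1, the main load sensor of osteoblasts and osteocytes in mice, had values of 0.48, 0.45 and 0.28 in differentiated cells and -0.28, -0.35 and -0.33 in undifferentiated cells. It rose 1.65-fold (0.72 ± 0.07, adjusted p = 2.90e-05, limma), and its 3 probe sets gave 0.70 to 0.74, each of them called. Piezo2, known from touch neurons, was at -0.02 (95% interval -0.17 to 0.13), with 3 probe sets at -0.06 to 0.01. The difference between the 2 genes' changes was not itself tested.

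The other 138 channel genes gave log2 fold changes of -0.16 to 0.27 with a median of 0.06. The 95% interval lay within 0.5 of 0 for 134 of them and within 0.25 for 90. The exceptions to the wider bound were Kcna3, Kcnk3, Kcnk5 and Kcnmb4os2, with upper ends of 0.50, 0.53, 0.52 and 0.56. Before adjustment 17 of the 138 had a p under 0.05 (limma), and in 23 the groups did not overlap. The same shares among all uncalled genes were not counted, so these counts are not a result about channel genes. The lowest value was that of the silent subunit Kcnf1 and the highest that of the Kv pore Kcnh1. Since levels are not known, a gene that was not called may have been expressed alike in both groups or in neither.

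Ion-handling genes outside the symbol rule were counted from lists drawn up for this comparison. The lists were chosen with earlier results of these data known. Their shares called therefore describe the lists only and are no result about such genes in general. The list of 49 other channel genes held 15 that rose and 1 that fell. That is 32.7% called, near the 35.5% of all genes, of which 16.4% rose and 19.1% fell. A called change of at least 2-fold was found for 7 of the 49, against 4.81% of all genes. P2rx4, an ATP-gated cation channel found largely in lysosomes, had values of 1.16, 1.15 and 1.15 in differentiated cells, against -1.15, -1.30 and -1.19 in undifferentiated cells, and rose 5.15-fold (2.37 ± 0.06, adjusted p = 2.09e-08, limma). The voltage-gated proton channel Hvcn1 rose by 2.10 ± 0.06, and the ATP-gated channels P2rx5 and P2rx7 by 1.72 ± 0.07 and 1.35 ± 0.08. Picked out after their values were seen, Mcoln1, which releases calcium from lysosomes, rose by 1.24 ± 0.08 (adjusted p = 2.96e-06) and Ostm1, the obligate partner of ClC-7, by 1.20 ± 0.06 (adjusted p = 6.99e-07). The values of Ostm1 were 0.58, 0.72 and 0.57 in differentiated cells and -0.60, -0.57 and -0.57 in undifferentiated cells, a gap close in size to that of Clcn7. The gene that fell was Clcc1, by 0.21 on the log2 scale.

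Pumps, exchangers and release channels moved in both directions, and 42.9% to 50% of each list was called, against 35.5% of all genes. These shares carry the same limit, since the choice of list could have raised them. Of 16 genes of calcium entry and release from stores, 5 rose and 3 fell, led by the lysosomal channel Tpcn1 (1.09 ± 0.06), the mitochondrial uniporter pore Mcu (-0.63), its gatekeeper Micu2 (-0.42) and the store sensor Stim1 (0.37). Leaving out differentiated replicate 3 or undifferentiated replicate 2 lowered that count of 8 to 5. Of 14 calcium pumps and exchangers 4 rose and 2 fell: the mitochondrial sodium-calcium exchanger Slc8b1 rose by 1.25 ± 0.06 and the reticulum pump Atp2a2 by 0.67 ± 0.05, while the plasma membrane exchangers Slc24a3 (-0.56) and Slc8a1 (-0.33) fell. Of 20 genes of the sodium pump and of sodium, potassium and chloride cotransport 8 rose and 1 fell, with the pump regulator Fxyd1 at 1.66 ± 0.10, the potassium-chloride cotransporter Slc12a7 at 0.98 ± 0.07 and the pump subunits Atp1b1 and Atp1b3 at 0.88 ± 0.14 and 0.51.

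Proteins that read calcium signals or set channel abundance were mixed. Of 17 calcium signal readers 5 rose and 4 fell (52.9% called, against 35.5% of all genes), among them the kinase Camk2d at 0.76, and the transcription factors Nfatc1 at -0.43, Nfatc3 at -0.40 and Nfatc4 at 0.38. Of 10 kinases and ligases that act on channels and transporters 3 rose and 2 fell (50% called). Sgk1, a glucocorticoid-induced kinase that keeps channels at the cell surface, rose by 2.90 ± 0.11, Wnk4 rose by 0.30, and Stk39 and Oxsr1, which phosphorylate cation-chloride cotransporters, fell by 0.61 and 0.35. That count of 5 was 3 without differentiated replicate 1 or differentiated replicate 2, and Wnk4 lost its call there and under 3 other settings, with adjusted p-values of up to 0.184.

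**Figure D4:**
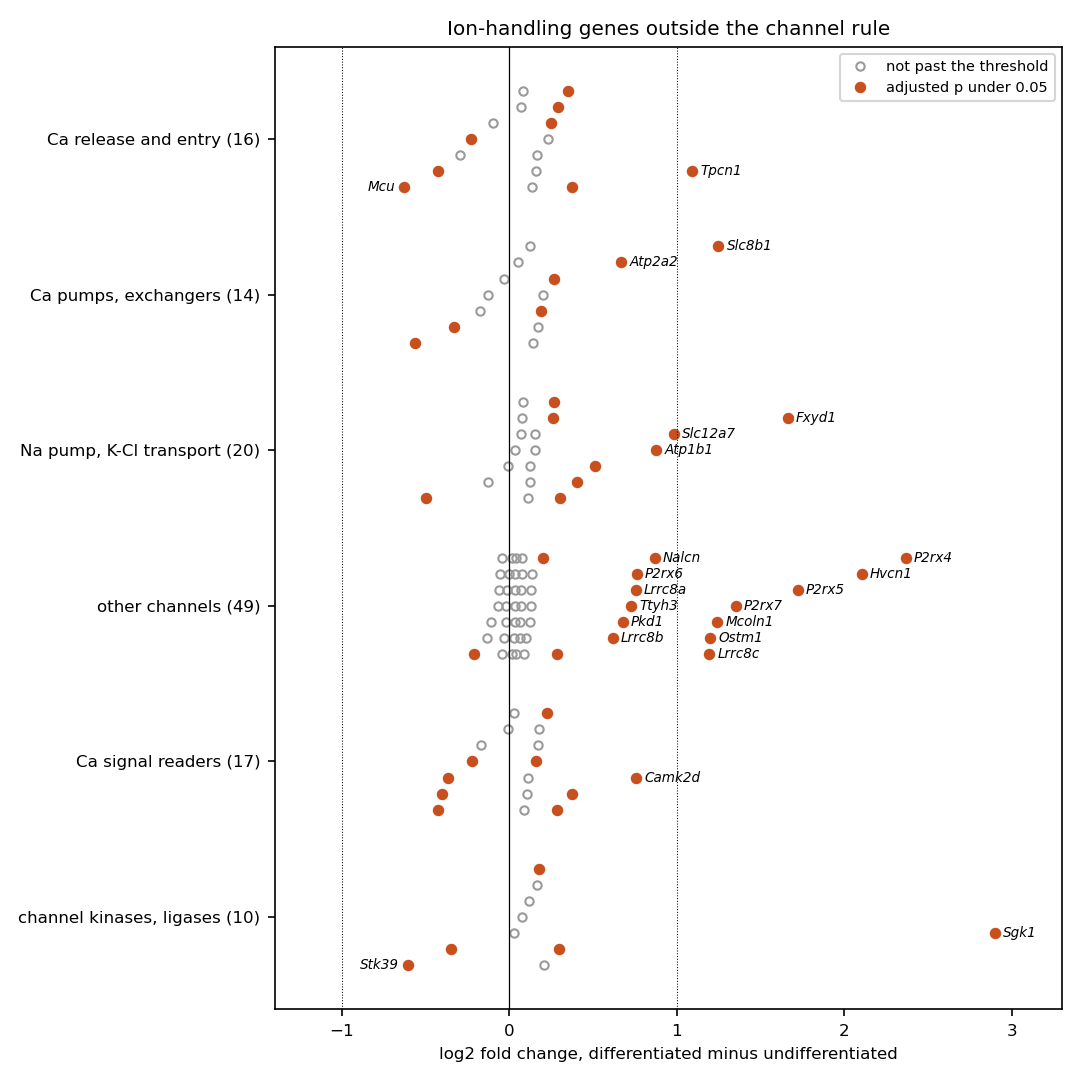
Log2 fold change (x axis, differentiated minus undifferentiated) of ion-handling genes outside the symbol rule, 1 point per gene, in rows by list with the number measured in brackets; filled points passed an adjusted p of 0.05, and names stand beside called genes with a change of at least 0.6. Sgk1 at 2.90 and P2rx4 at 2.37 lie farthest right.

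Of the marker lists of other cell types, 10% to 30% of the genes were called, against 35.5% of all genes (16.4% of all genes rose). Of 10 skeletal muscle markers 1 rose (Tnnt3, 0.30), with means per array of -0.05 to 0.07 in differentiated and -0.055 to -0.0016 in undifferentiated cells. Of 10 endothelial markers 2 rose (Flt1 and Vwf), with means of 0.05 to 0.08 in differentiated and -0.16 to -0.02 in undifferentiated cells. Of 10 adipocyte markers 3 rose (Plin4, Fabp4 and Cebpa), with means of 0.08 to 0.17 in differentiated and -0.13 to -0.10 in undifferentiated cells. Centred values do not show whether any marker was detected, and the part of such cells in the channel results was not tested.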

How the data were processed

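RNA of 6 samples was extracted with Trizol, labelled with biotin and hybridised to Affymetrix Mouse Gene ST arrays, 1 per sample. The deposited log2 values were made by the authors with RMA (version not given), per the submitters' processing notes, and the log base is the one RMA uses. Over the 6 arrays every probe set's median lies within 5e-07 of 0. Such centring keeps differences between arrays and removes levels: signal over background is unknown and dim probe sets could not be filtered. Precision is limited by the number of arrays. Scanner files were not used here.

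Of 28856 probe sets, 21789 name 1 gene, 1621 several and 5446 none in the platform annotation; symbols were updated by gene ID through RefSeq (GRCm38.p6; 21698 matched), which changed no channel symbol. Probe sets of a gene were averaged (10 channel genes). Another 4 probe sets naming several genes, a channel gene among them, were left out. The difference between differentiated and undifferentiated arrays was estimated for 19938 genes with limma (lmFit, eBayes, two-sided), leaving out the replicate number. P-values were adjusted by Benjamini-Hochberg across these genes, and SE is limma's moderated standard error. The fit was tested on simulated data.

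Members, families, lists and markers were chosen with earlier results of these data known. Named genes were called members changed at least 2-fold, up to 4 further called members per family whose groups do not overlap, up to 4 called genes per list, and 16 genes whatever their result, of which 15 were analysed here. Kcnj14, Kcnk15, Kcns1, Mcoln1, Ostm1, Clcc1, genes that mark the end of a range, the neighbours of Scn3a and the relatives of named genes were chosen after their values were seen. Alternatives were the replicate block, quantile, median and cyclic loess scaling, every probe set, genes with 1 probe set, robust eBayes, array weights and each array left out. R 4.3.3, limma 3.58.1, Python 3.11.15, numpy 2.4.6, pandas 2.3.3 and matplotlib 3.10.9 were used.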

Additional observations from a re-analysis of the deposited data

How the results depend on the processing

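Of the 32 called channel genes, 22 were called under every setting in which they were fitted (14 settings, or 13 for Piezo1), and no named gene changed direction in any of them. The count of called channel genes was 31 to 36 under quantile, median and cyclic loess scaling, every probe set, genes with 1 probe set, robust eBayes and array weights, and 24 to 41 when 1 array was left out. The number of called genes changed at least 2-fold was 5 under cyclic loess scaling, where Kcnmb4 (1.22) and Scn3a (-1.02) passed the bound, and 3 to 5 when 1 array was left out. Restricting the fit to genes with 1 probe set gave 0 Piezo calls, because both Piezo genes have 3 probe sets and were not fitted. With 1 array left out, the potassium count was 9 to 23, the calcium count 2 to 5, the count of calcium entry and release genes 5 to 10 and that of kinases and ligases 3 to 5; the cause was not tested. Deviations of same-numbered arrays from their group means correlated at -0.00133, 0.0692 and 0.162 for replicates 1, 2 and 3. Only for replicate 3 did the differentiated array correlate best with the undifferentiated array of its own number. With 3 arrays per group these values cannot settle whether replicate numbers pair the arrays. With the replicate block 35 channel genes were called, 31 of the 32 among them. Scaling methods were applied to centred values, which are not their usual input.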
